A study of Mus musculus with 5 samples.

Results

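The place of the nuclear receptor TLX inside acetylated chromatin was examined in cultured mouse brain tumour stem cells (BTSC). The members are 1436 TLX peaks, each reduced to its summit, and 31597 regions of histone H3 acetylated at lysine 27 (H3K27ac). They were chosen by culture and antibody alone, though with earlier results of these data known. They make up 33033 of the 71757 entries in the 4 peak lists of the series. Each summit was assigned to the H3K27ac region that contains it, and each region was then classed as holding a TLX summit or not.

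The study profiled TLX and H3K27ac by chromatin immunoprecipitation with sequencing in BTSC and in mouse primary neural stem cells (NSC). For TLX, cells of BTSC or NSC held a TLX-3xTY1 construct delivered by retrovirus and kept under drug selection, and the tag was precipitated with a TY1 antibody. For H3K27ac, cells that had not been transduced were used, so the TLX and H3K27ac lists of BTSC come from separate chromatin and from cells that differ in the added TLX. The remaining sample is a no-antibody control with an empty vector and is not analysed here. The labels do not say from which tumour model the BTSC were derived, nor what promoter state or copy number the retroviral TLX had, and no TY1 precipitation from untagged BTSC is used here. Each group has 1 library, so values have no replicate check, and groups are compared without tests or p-values. Shares carry exact Clopper-Pearson 95% intervals, which cover counting error only. Read depth is unknown, and a region without TLX is one in which no peak was called.

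TLX, encoded by Nr2e1, is an orphan nuclear receptor that keeps neural stem cells of the brain in a self-renewing state and that is also expressed in gliomas. It binds DNA as a monomer at a short core sequence and is best known as a repressor that brings histone deacetylases and the demethylase LSD1 to its targets. H3K27ac marks active promoters and enhancers, and long stretches of it often lie over genes that define a cell's identity.

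At gene starts the lists of TLX and H3K27ac meet in a stretch short enough to be read base by base, so the sequences there are shown first. In the promoter table, 120 TLX peaks had their summit in a window that runs from 250 bases before to 50 bases after a gene start, and 119 of these summits lay in an H3K27ac region. Of the 10 windows whose TLX peaks had the highest q, 5 held the core sequence of TLX, AAGTCA on either strand, and 5 did not. The 5 stretches shown here come from those 10, 3 of them with AAGTCA (or TGACTT, the same letters on the other strand) in capitals and 2 without it in the window. Each is a run of 81 bases of RefSeq sequence before the gene start (build GRCm38.p6), 5′ to 3′ on the strand of the gene.
Psmf1, chr2:151741311-151741391, minus strand: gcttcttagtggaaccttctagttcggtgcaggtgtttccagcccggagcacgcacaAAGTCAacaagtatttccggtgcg
Ccnk, chr12:108179657-108179737, plus strand: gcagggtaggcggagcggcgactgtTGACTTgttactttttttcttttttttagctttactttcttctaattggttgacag
Rbms2, chr10:128176663-128176743, minus strand: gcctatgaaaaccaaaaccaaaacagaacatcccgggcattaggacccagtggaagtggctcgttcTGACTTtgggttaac
Actr3, chr1:125435897-125435977, minus strand: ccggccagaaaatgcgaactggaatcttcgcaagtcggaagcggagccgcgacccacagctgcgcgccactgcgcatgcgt
Sec23b, chr2:144556072-144556152, plus strand: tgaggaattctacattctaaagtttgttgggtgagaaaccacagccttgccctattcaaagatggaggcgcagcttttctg
Psmf1 encodes an inhibitor of the proteasome, Ccnk a cyclin that acts in transcription, Rbms2 an RNA-binding protein, Actr3 a subunit of the actin-nucleating Arp2/3 complex, and Sec23b a coat protein of vesicles that leave the endoplasmic reticulum.

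The Psmf1 core sequence lay almost under the summit of the second-ranked TLX peak of the list. That summit, at position 151741335 of chromosome 2, was 25 bases upstream of the gene start, and the centre of the core sequence was 4 bases from it. Its fold, the enrichment that the authors' caller gave over background, was 52.65, and the acetylated region around it was 1515 bp wide. In Rbms2 the core sequence was 29 bases from the summit. The Ccnk window held 2, the one shown at 85 bases from the summit, which lay 32 bases past the gene start, and one at 24 bases that lies past the start and is not shown. The TLX folds were 10.76 at Rbms2 and 11.67 at Ccnk. In the windows of Recql5 and Bsdc1, not shown, the nearest core sequence was 70 and 96 bases from the summit. The Actr3 and Sec23b windows held no AAGTCA in their 300 bases, with TLX folds of 13.9 and 8.861. Among the 10 promoter windows with the highest q, the core sequence was therefore neither always present nor tied to a fixed place.

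Across the promoter windows, the TLX core sequence was more frequent where TLX had been called than at other acetylated gene starts. AAGTCA on either strand occurred in 24 of 120 windows with a TLX summit, or 20% (95% interval 13.25 to 28.28%). It occurred in 9.437% (8.831 to 10.07%) of 8721 windows whose start was acetylated and whose region held no TLX. The share in all 19404 windows was 13.3%, and in 10258 windows without acetylation it was 16.57%. Acetylated windows without TLX and windows with TLX had nearly the same base composition, at 62.04% and 61.63% G and C, while windows without acetylation had 50.18%. In the 24 windows with the core sequence, its median distance to the summit was 55.5 bp, and in 11 of them it was within 50 bp. Each window has 300 bases and contains the summit, so any match lies near it, and no chance value was worked out.

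Other motifs gave smaller contrasts between windows with TLX and acetylated windows without it. The extended sequence AAGGTCA, which other monomeric nuclear receptors bind, was found in 5.0% (1.857 to 10.57%) against 2.729%. ACAAAG, bound by SOX factors, was found in 20% (13.25 to 28.28%) against 13.16%. It shared bases with the core sequence in 1 of the 120 windows, that of Psmf1, so the 2 motifs were counted almost wholly apart. GGGCGG, the GC box of Sp and KLF factors, occurred in 58.33% (48.98 to 67.26%) against 68.02%, and CCAAT in 30.83% (22.73 to 39.91%) against 38.32%. The AP-1 letters TGANTCA were in 5.833% (2.377 to 11.65%) against 4.002%. The NFI palindrome was in 0 of 120 windows, with an upper bound of 3.027%, and in 0.02293% of the acetylated windows without TLX. A match describes letters in a window and is not a measured binding site.

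Nearly all TLX summits lay in acetylated chromatin. Of 1436 summits, 1329 were inside an H3K27ac region, or 92.55% (91.07 to 93.85%). For 1293 of these the whole TLX peak was within the region. The 1329 summits fell in 1271 regions, which is 4.02% of the 31597 regions called, and those regions held 7.533 Mb of 74.13 Mb of acetylated sequence (10.16%).

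Within a region, TLX sat towards the middle. The distance of each summit from the region's midpoint was divided by the distance from midpoint to edge, so that 0 is the midpoint and 1 the edge. This ratio is called the relative distance. The median was 0.266 (quartiles 0.123 and 0.451), where summits spread evenly would give 0.5. The central 50% of a region held 79.23% of summits (76.95 to 81.38%). The central bin of the 10, nearest the midpoint, held 269 summits and the outermost bin held 11. In base pairs, the median summit was 406 bp from the midpoint and 1120 bp from the nearest edge, and 25 summits were within 200 bp of an edge.

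**Figure D1:**
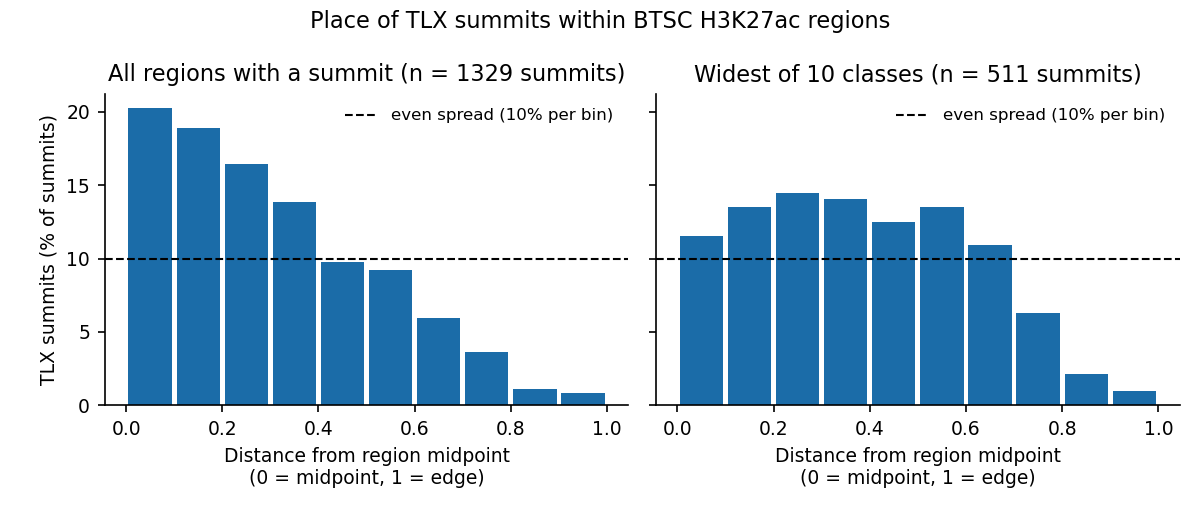
TLX summits by distance from the midpoint of their BTSC H3K27ac region (x axis, 0 midpoint, 1 edge) as a percentage of summits (y axis), for all 1329 summits and for the 511 in the widest of 10 classes of regions; the dashed line is an even spread. The bars fall from 20.24% at the midpoint to 0.828% at the edge over all regions, while in the widest regions they stay between 10.96 and 14.48% over the first 7 bins.

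The central place was sharper in regions of intermediate width than in the narrowest or the widest. With regions ranked into 10 equal classes of width, the share of summits in the central 50% was 91.67% in class 4, 94.79% in class 6, 89.36% in class 7 and 95.1% in class 8, whose median width is 2615 bp. It was 79.65% in class 9 and 66.14% in the widest class. In the 643 regions of at least 10 kb, 146 of 225 summits were in the central 50%, or 64.89% (58.27 to 71.11%), and the median summit was 4780 bp from the nearest edge. The narrowest class had 7 of 10 summits in the central 50%, and class 2 had 14 of 21 (66.67%). The median relative distance was 0.373 in both the narrowest and the widest class. The plot of summits by distance from the midpoint shows both forms, a slope over all regions and a plateau in the widest.

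Stronger TLX peaks and those away from gene starts lay closer to the midpoint. With TLX peaks ranked into 4 classes of q, the median relative distance was 0.301, 0.260, 0.255 and 0.241 from the lowest to the highest. By gene position it was 0.317 for 474 summits in regions over a gene start, 0.247 for 430 in regions inside a gene and 0.243 for 425 in regions between genes. The quartiles of the 3 classes overlap widely, with 0.137 to 0.529 over gene starts and 0.121 to 0.414 between genes. TLX fold itself hardly differed by place, with a median of 5.228 in the central 50% and 5.036 in the outer 50%.

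TLX was found in wide and strongly acetylated regions. The median width was 3280 bp (quartiles 1934 and 6310) in the 1271 regions with TLX and 1541 bp (964 and 2508) in the 30326 without, a ratio of 2.128. The median H3K27ac fold was 11.18 (6.413 to 16.44) with TLX and 4.358 (2.961 to 8.054) without. The median −log10 q of the regions was 52.21 with TLX and 8.674 without. The interquartile ranges of width and of fold overlap between the classes.

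The share of regions with TLX was higher in each of the 10 classes of width than in the one before, but the number of summits per Mb was not. In the narrowest class, of 416 to 622 bp, 10 of 3160 regions held TLX, or 0.317% (0.152 to 0.581%). In the widest, 454 of 3160 did, or 14.37% (13.16 to 15.64%). Since a wide region has more room for a summit, the same classes were counted per Mb of acetylated sequence. That density was 6.178 summits per Mb in the narrowest class, 17.64 in class 6, 21.41 in class 7 and 19.15 in the widest. From class 6 on, the density stayed between 17.2 and 21.41 while the share went from 3.039 to 14.37%.

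Ranked by H3K27ac fold, both measures were highest at the top of the scale. The share with TLX was 0.696% (0.437 to 1.052%) in the class of lowest fold and 14.97% (13.74 to 16.26%) in that of highest fold. The density was between 6.842 and 7.497 summits per Mb in the 4 lowest classes, 21.28 in class 9 and 35.44 in class 10. The plot of the 10 classes shows the densities by width levelling off where those by fold climb.

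**Figure D2:**
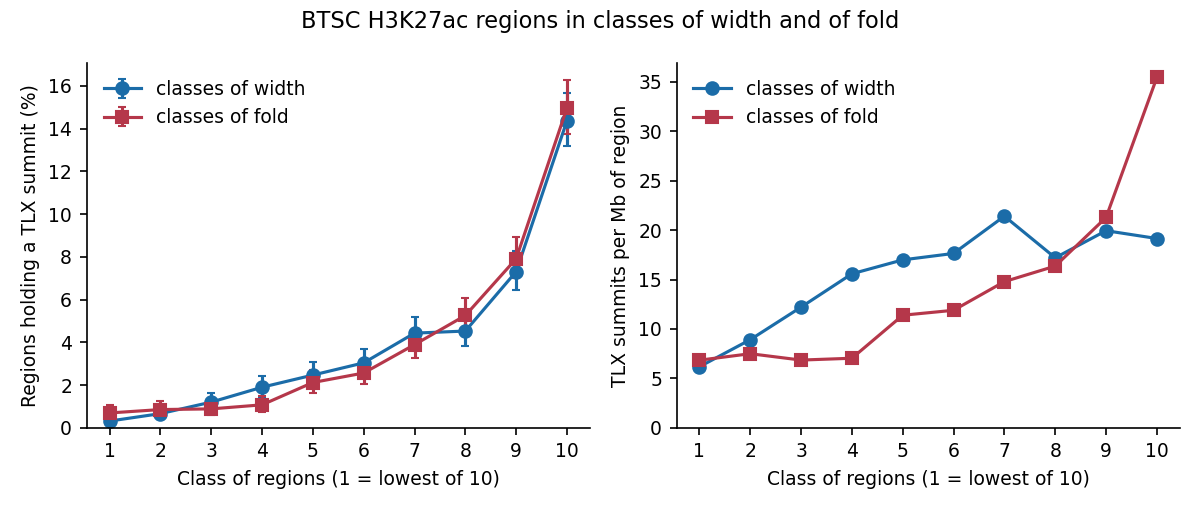
BTSC H3K27ac regions in 10 equal classes of width (blue) or of H3K27ac fold (red), from 1 (lowest) to 10 (x axis); the left panel gives the percentage holding a TLX summit with exact 95% intervals and the right panel TLX summits per Mb of region. The top classes reach 14.37% and 14.97%, at 19.15 and 35.44 summits per Mb.

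Width and fold were then crossed, each in 4 equal classes. Among the widest regions, of more than 2615 bp, the share with TLX was 2 of 399 (0.501%) at the lowest fold, 17 of 1070 (1.589%), 112 of 2286 (4.899%) and 633 of 4144 (15.28%, 14.19 to 16.41%) at the highest. Their density went from 1.325 to 27.08 summits per Mb. A wide region of low fold therefore held TLX about as seldom as a narrow one, since the narrowest regions of lowest fold had 25 of 4598 (0.544%). Among the narrowest, of at most 986 bp, no class of fold passed 0.893%, and the 86 of highest fold held none, with an upper bound of 4.199%.

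**Figure D3:**
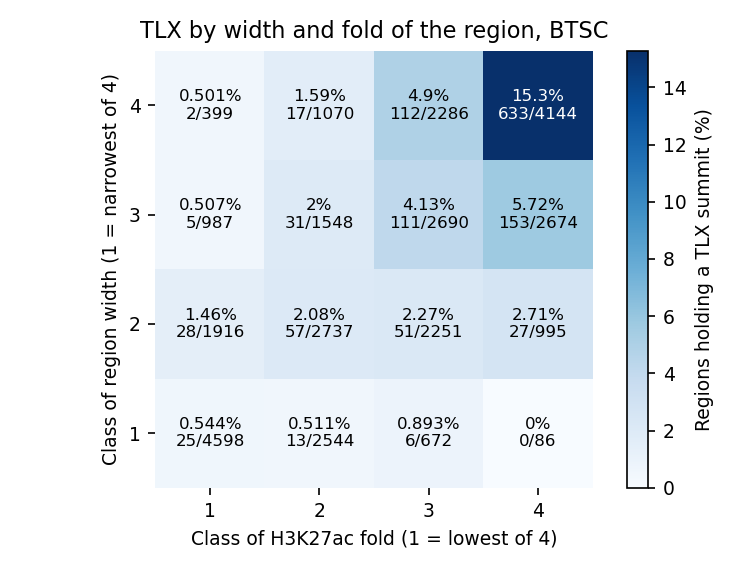
Percentage and number of BTSC H3K27ac regions that hold a TLX summit, by class of H3K27ac fold (x axis) and of region width (y axis), 4 each, with darker blue for a higher percentage. The corner of widest regions and highest fold, with 633 of 4144 regions, stands at 15.28%, and no other field passes 5.722%.

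At single loci, all 10 of the widest regions held at least 1 TLX summit. Their H3K27ac folds ran from 8.409 inside Xylt1 to 41.04 at Rhbg. The lowest of these was just under the highest of the 4 classes of fold, which begins at 8.451. The widest, of 112626 bp, lies inside Xylt1 (chr7:117417052-117529677), which encodes an enzyme that starts glycosaminoglycan chains, and held 3 summits. The next are inside Map4k4, a kinase gene, with 85814 bp and 1 summit, and over the start of the mitochondrial carrier gene Slc25a26, with 62872 bp and 1. Regions of 61813 bp inside Slc6a11, a GABA transporter gene of astrocytes, and of 60392 bp over the start of Ptn, a secreted growth factor gene, held 1 each. The others are over the starts of Myt1, Maml2 and Rhbg and in the stretches between genes nearest to Polg and Ppara.

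Of 643 regions of at least 10 kb, 463 had no TLX summit and 180 had one, or 27.99% (24.55 to 31.64%). The widest of those without TLX, of 48003 bp, is inside Tcf4, which encodes a partner of proneural factors, and has an H3K27ac fold of 13.33. It is followed by regions inside Nav2 (47242 bp), Rpn2 (47027 bp) and Myh9 (45847 bp) and over the start of Qk (40228 bp), an RNA-binding protein gene of glia. Over starts, Mtss2 (40084 bp), the gamma protocadherin cluster with Diaph1 (39462 bp) and Rpl13 (35205 bp) were also without TLX, as were regions inside Fchsd2 (37813 bp) and Trio (37509 bp). Their folds ranged from 6.275 in Rpn2 to 20.68 at Qk, so a wide and strongly acetylated region could lack a TLX peak.

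A small number of regions held several summits. Of the 1271 regions, 46 held 2 and 6 held 3. Neighbouring summits in 1 region were 4511 bp apart at the median (quartiles 2070.5 and 9757.2, range 975 to 28483). These 52 regions had a median width of 15849.5 bp and a median fold of 16.64, and 22 lay over a gene start. The 6 with 3 summits are those inside Xylt1 and over the starts of Rhbg, an ammonium transporter gene whose region of 53065 bp also covers Mir9-1, of the unconventional myosin gene Myo10 (30213 bp), of Bahcc1 (29140 bp), of the glial potassium channel gene Kcnj10 (28074 bp) and of Marcks (10984 bp). Among those with 2 are Notch1 (41733 bp), Plpp3 (39224 bp) and regions nearest to Polg (59305 bp) and Pabpc6 (42629 bp).

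The strongest TLX peaks inside acetylated chromatin lay in regions of very different size. Beside Psmf1, the highest q belonged to summits inside Serinc5 (fold 19.69, region 11199 bp), over the start of Sparcl1 (19.69, 6551 bp), a secreted glycoprotein gene of astrocytes, and at Bahcc1 (19, 29140 bp). Further ones were inside Bag1 (14.07, 1491 bp), a chaperone cofactor gene, inside the integrin gene Itgb5 (15.34, 1043 bp), inside Rab31 (14.88, 11645 bp) and inside Tns3 (13.12, 7574 bp). The Actr3 summit had a fold of 13.9 in a region of 3219 bp. One lay between genes, 244766 bp from the nearest start, that of Tenm4, with a fold of 15.57 in a region of 2590 bp. Strong TLX and strong acetylation did not go together at each locus, since the H3K27ac folds of the Sparcl1, Bag1 and Itgb5 regions were 4.251, 4.266 and 3.719, below the median of 11.18 over regions with TLX.

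By gene position, regions with TLX were spread almost evenly over 3 classes, and those without were most often inside genes. Regions were classed as over a gene start, otherwise inside a gene, or between genes. With TLX, 447 of 1271 were over a start (35.17%, 32.54 to 37.87%), 416 inside a gene (32.73%, 30.15 to 35.39%) and 408 between genes (32.1%, 29.54 to 34.75%). Without TLX the shares were 30.92% (30.4 to 31.44%), 43.98% (43.42 to 44.54%) and 25.1% (24.61 to 25.59%). Seen the other way, TLX was in 5.087% of regions between genes (4.617 to 5.591%), in 4.55% over starts (4.146 to 4.981%) and in 3.025% inside genes (2.745 to 3.325%).

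The higher share over gene starts did not hold at like width. Regions over starts were wide and strongly acetylated. Within classes 2, 3 and 4 of width (of 4) the share over a start was lower with TLX than without. It was 22.7% (16.51 to 29.9%) against 31.79%, 36.33% (30.88 to 42.06%) against 39.99%, and 38.61% (35.14 to 42.17%) against 40.9%. Only in class 2 did the interval with TLX leave out the value without. In the narrowest class the share over a start was 13.64 against 12.23%. Over all regions the difference was 4.248 percentage points. It turned to −8.272 when only regions with a −log10 q of at least 5 were taken, and to −1.513 without the narrowest of the 4 classes. It was 1.139 without chromosomes 1 and 6, and 0.894 with TLX peaks of −log10 q of at least 5.

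The lower share inside genes turned round at like fold. Its direction held in all 4 classes of width, for example with 32.07 against 40.73% in the widest. In classes 1 and 2 the interval with TLX included the value without. These were 32.46 to 63.31% against 54.84%, and 29.4 to 44.71% against 41.99%. In 4 classes of H3K27ac fold, however, the share inside genes was 50% with TLX against 66.17% without at the lowest fold, 51.69 against 53.94% in class 2, 45% (39.07 to 51.03%) against 36.75% in class 3, and 24.48% (21.56 to 27.58%) against 16.26% at the highest.

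The higher share between genes held at like width and at like fold. Only in the narrowest class of width did the interval with TLX include the value without, at 38.64% (24.36 to 54.5%) against 32.93%. In the widest class, TLX was in 14.59% of regions between genes (12.86 to 16.46%), 9.181% over starts (8.205 to 10.23%) and 7.775% inside genes (6.864 to 8.766%). In class 3 these were 5.655, 3.463 and 3.035%. With regions ranked by H3K27ac fold, between genes again came first, and in classes 3 and 4 inside genes and starts changed places. In the class of highest fold, 224 of 1123 regions between genes held TLX (19.95%, 17.65 to 22.41%), 199 of 1351 inside genes (14.73%, 12.88 to 16.73%) and 390 of 5425 over starts (7.189%, 6.516 to 7.909%). Those over starts had a median width of 2434 bp and those between genes 3322 bp, and per Mb the densities were 21.07 and 45.54 summits. In class 3 of fold the shares were 5.488% between genes, 4.306% inside genes and 1.624% over starts.

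**Figure D4:**
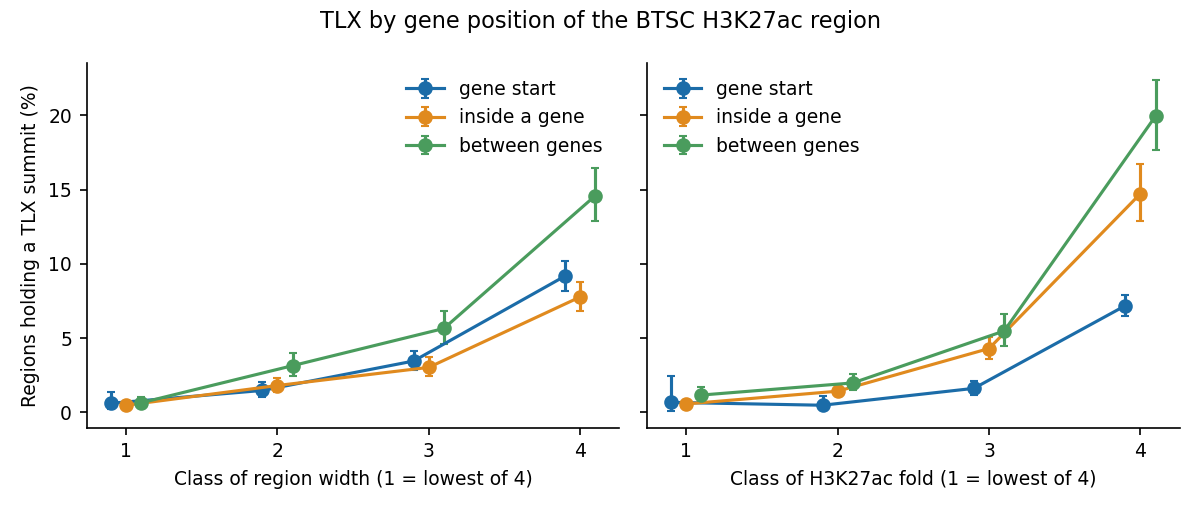
Percentage of BTSC H3K27ac regions that hold a TLX summit (y axis) by class of region width (left) and of H3K27ac fold (right), 4 each, for regions over a gene start, inside a gene and between genes, with exact 95% intervals. At the highest fold the points are 19.95, 14.73 and 7.189% for between genes, inside a gene and gene start.

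TLX peaks had their order of strength as in the classes of fold. The median TLX fold was 5.494 (quartiles 4.578 and 6.638) in regions between genes, 5.265 (4.578 to 6.409) inside genes and 4.807 (4.349 to 5.723) over starts, with overlapping ranges.

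Where a region with TLX covered a gene start, the summit was near that start and more often past it than before it. The 388 summits in regions with a start of known strand had a median signed distance of 84 bp downstream (quartiles −131.8 and 435.2). Of these, 232 were downstream, or 59.79% (54.73 to 64.71%), and 156 upstream. The median distance in either direction was 275 bp, 183 summits were within 250 bp and 61 were more than 2000 bp away. The gene start was no nearer to the region's midpoint than the summit, with a median relative distance of 0.392 for 508 starts in regions with TLX against 0.292 for the summits. In regions without TLX, 10033 gene starts had a median of 0.321. The plot of summits around gene starts shows a narrow peak on either side of the start with a longer shoulder downstream.

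**Figure D5:**
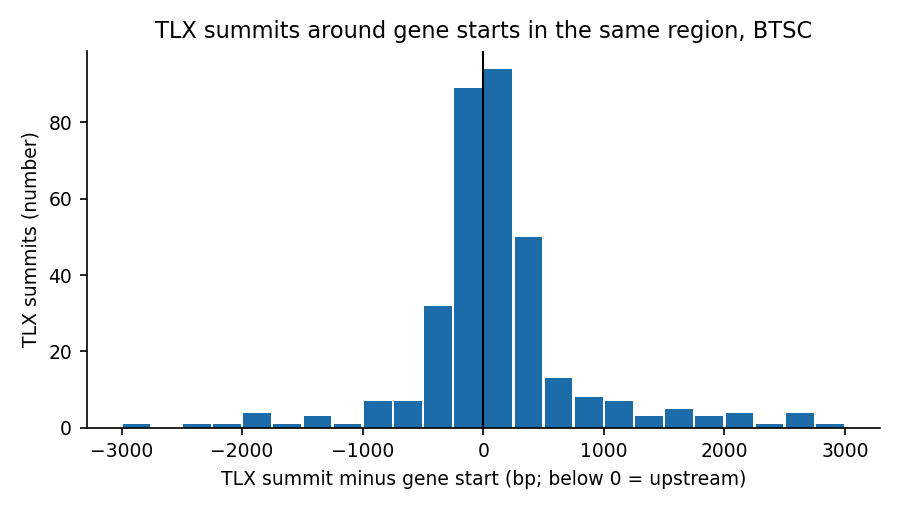
Number of TLX summits (y axis) in bins of 250 bp by signed distance from the nearest gene start in the same BTSC H3K27ac region (x axis, bp, below 0 upstream). The highest bins are on either side of the start, with 89 summits upstream and 94 downstream, and 9 summits upstream and 39 downstream lie beyond the 3000 bp drawn.

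Most gene lists had TLX in their acetylated start regions more often than genes at large. The share was highest for neural stem cells, the oligodendrocyte lineage, the Notch pathway and astrocytes. Of 21900 protein-coding genes, 10757 had a start in an H3K27ac region (49.1%), and in 525 of these that region held TLX (4.88%). The lists below were chosen with earlier results of these data known, and their counts are descriptions. Their acetylated start regions are wide, with a median of 5313 bp over 142 list genes against 2009 bp over all acetylated genes. Among acetylated genes with a start region in the widest of 4 classes, 352 of 3714 had TLX (9.478%, 8.554 to 10.47%), and of the 112 list genes there, 30 did. The median start region was 8813.5 bp in the neural stem cell list and 13486 bp in the oligodendrocyte lineage list. Of all H3K27ac regions of at least 10 kb, 27.99% held TLX. Distances from summit to start are to the nearer gene end for Boc, Hes1, Heyl, Mir9-2, Nfib, Olig1, Sparcl1 and Wnt5a, whose strand was not in the promoter table. For such genes the end counted as a start can be the far end of the gene.

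The labelled cell type was checked against marker genes. Of 19 neural stem cell genes, 16 had an acetylated start, among them Sox2, Nes, Sox9, Fabp7 and Egfr, while Pax6, Msi1 and Prom1 did not. Astrocyte genes were acetylated in 11 of 14 and oligodendrocyte lineage genes in 8 of 14, without Pdgfra, Mbp or Mog. Neuronal genes were acetylated in 4 of 16, without Dcx or Rbfox3. The counts were 1 of 12 for microglia and myeloid cells, with Cd68 alone, 0 of 12 for endothelium, and 2 of 16 for other tissues. No TLX summit lay in a start region of these last 4 lists, whose few acetylated starts left little room for one. Housekeeping genes were acetylated in 11 of 12, and TLX was in 1 of those regions.

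In the neural stem cell list, 7 of the 16 acetylated genes had TLX, or 6 of 15 without Nr2e1. With TLX peaks of −log10 q of at least 5 it was 6 of the 16. Nr2e1, which encodes TLX itself, had 2 summits in a region of 7654 bp, with folds of 3.873 and 3.418. The TLX sample carries a retroviral copy of that gene, and the part of the copy in this signal was not tested. The transcription factor genes Sox2 and Sox1 had a summit each, with folds of 4.12 and 5.036, at 801 bp and 2125 bp from the start. Sox2 lay in a region of 27036 bp (chr3:34646239-34673274) at a relative distance of 0.781, far from the midpoint. The glutamate transporter gene Slc1a3 had a summit of fold 4.596 that fell almost on the midpoint of its 9903 bp region, 4456 bp from the start. The start regions of Nes, Sox9 and Egfr, of 4881, 8484 and 9143 bp, held no TLX.

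For the Notch pathway, which keeps neural progenitors undifferentiated, 19 of 20 genes were acetylated and 7 of these had TLX. They include receptors, a ligand, a modifier, a coactivator and effectors. Among receptors, Notch1 had 2 summits, one of fold 4.349 at 176 bp from the start and one of fold 5.494 at 16156 bp, and Notch2 had 1 of fold 4.12 at 126 bp. The ligand gene Jag1 had a summit of fold 4.578 at 724 bp, and Lfng, a glycosyltransferase that tunes Notch receptors, had 2, with folds of 4.12 and 3.662. Maml2, which encodes a coactivator of the Notch complex, had a summit of fold 4.182 in a region of 56138 bp, 37160 bp from the start. That region is among the 10 widest, all of which held TLX. Another acetylated start region of Maml2, of 12479 bp, held none. The effectors Hes1 and Heyl had folds of 8.698 and 6.409, each in a region over a gene end that may not be the start. Among the 1436 peaks, the summits of these Notch pathway genes ranked from 114 at Hes1 to 1418 at Lfng. Dll1, Rbpj and Hes5 were acetylated without TLX in the start region. With TLX peaks of −log10 q of at least 5, the Notch pathway count was 5 in place of 7.

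Glial genes gave similar counts. In the oligodendrocyte lineage list 3 of 8 acetylated genes had TLX: Olig1 (fold 10.53, 6833 bp from the gene end), Olig2 (4.578, 1671 bp) and Sox6 (5.036, 220 bp), all transcription factors. Another acetylated start region of Sox6, of 6258 bp, was without TLX. In the astrocyte list 4 of 11 had it. They are Gfap, the astrocyte filament gene, with a fold of 7.325 at 1322 bp, Sparcl1, the glutamine synthetase gene Glul (3.891, 332 bp) and the transcription factor gene Nfib, with 2 summits of fold 6.799 and 7.096. Gfap is a reported TLX target, and its summit lay close to the midpoint of a region of 5266 bp (chr11:102895985-102901250), at a relative distance of 0.0363. Of 17 acetylated glial transcription factor genes 5 had TLX, which adds Pou3f3 and Sox21, with 2 summits each, and Tcf3 to Sox2 and Nfib. With TLX peaks of −log10 q of at least 5 this count was 3. At that q the astrocyte count was 3 in place of 4, and the oligodendrocyte lineage count stayed at 3.

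Other signalling lists had fewer. TLX was in 2 of 8 acetylated Hedgehog genes, Gli2 (fold 6.409) and the coreceptor gene Boc (3.662), and in 2 of 15 Wnt genes, the feedback inhibitor Axin2 (3.662) and the ligand Wnt5a (3.434). Both Wnt summits were among the weakest of the list, ranked 1405 and 1434, and at a −log10 q of at least 5 neither remained. In receptor tyrosine kinase signalling 2 of 16 had TLX, Nf1, an inhibitor of Ras (4.12), and Lrig1, which dampens receptor signalling (4.578). Among cell cycle genes TLX was in 2 of 14, including the kinase inhibitor gene Cdkn1b (5.036, 6662 bp from the start), and Cdkn1a, a reported TLX target, was acetylated without it. Of 14 acetylated genes for TLX cofactors and reported targets 4 had TLX, including the corepressor gene Rcor1 (4.349) and Gfap. The Hedgehog and receptor tyrosine kinase counts were 1 each at that stricter q, and 1 each without chromosomes 1 and 6, as was that of the cell cycle list without those chromosomes.

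MicroRNA hairpins that shared an acetylated region with TLX included those of miR-9, let-7b and let-7c-2. miR-9 and TLX are reported to repress each other in neural stem cells, and let-7b is reported to target TLX, so their mature sequences (RefSeq, seed bases 2 to 8 in capitals) are shown; the 2 let-7 forms share a seed, and the 2 arms of miR-9 do not.
mmu-miR-9-5p: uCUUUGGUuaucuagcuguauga
mmu-miR-9-3p: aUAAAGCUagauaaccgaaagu
mmu-let-7b-5p: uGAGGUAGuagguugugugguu
mmu-let-7c-5p: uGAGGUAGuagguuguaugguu
Of 1005 hairpins, 166 lay in an H3K27ac region and 19 in one with TLX, or 11.45% (7.034 to 17.3%), in 15 of 150 distinct regions. All 3 miR-9 genes were among them. Hairpins outside the miR-9 and let-7 families lay nearer to a summit in several regions, down to 45 bp at Mir3081. The Mir9-2 region of 38175 bp held 2 summits, the stronger of fold 5.723 at 2988 bp from the hairpin and the nearest at 1375 bp. That of Mir9-1, of 53065 bp, held 3, the strongest of fold 6.638 at 15836 bp and the nearest at 7029 bp, and that of Mir9-3, of 59305 bp, held 2, the stronger of fold 5.265 at 26149 bp and the nearest at 13991 bp. Mirlet7b and Mirlet7c-2 lie in 1 region of 57815 bp, with a summit of fold 4.578 at 35841 and 35125 bp. These regions are wide, and those of Mir9-1, Mir9-3 and let-7 are among the 10 widest, all of which held TLX. The share with TLX was 27.99% of regions of at least 10 kb and 4.02% of all H3K27ac regions.

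The 107 TLX summits outside H3K27ac were mostly far from it and not weaker. Their median distance to the nearest region was 42410 bp (quartiles 13057 and 93709), 11 were within 500 bp and 45 were more than 50000 bp away. Their median TLX fold was 5.723 (4.98 to 6.88) against 5.145 (4.549 to 6.275) inside, and their median −log10 q was 10.41 against 7.535. From the highest to the lowest of 4 classes of TLX q, the share of summits inside was 88.3% (84.52 to 91.44%), 90.53%, 94.43% and 96.94% (94.58 to 98.46%). Within 1 kb of a gene start lay 2 of the 107, with 50 inside genes and 55 between genes, against 359, 519 and 451 of the 1329 inside H3K27ac. An NSC TLX peak overlapped 81 of the 107, and 10 summits were in an NSC H3K27ac region.

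The leading sites outside acetylation were of 2 kinds. Inside Thsd4, a gene of the extracellular matrix (chr9:60311469-60312276), the peak had a fold of 25.18 and lay 43796 bp from the nearest region, and one nearest to Atp6v1g3 had a fold of 19.12 at 170749 bp. Those nearest to Csnk1a1, Zdhhc21 and Celf4 and one inside Auts2 had folds of 14.97, 10.05, 9.609 and 10.07. The other kind has a very high q at a fold close to 1. The top-ranked peak of the list (chr2:98666647-98667197), far from any gene and nearest to Lrrc4c, had a −log10 q of 354.9 at a fold of 1.353, and a pair nearest to Alkbh8 had folds of 1.604 and 1.647. These are 3 of the 4 TLX peaks with a fold under 2.

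Set beside NSC, the place of TLX within a region was much alike, while the share of summits in acetylated regions turned on how the NSC list was cut. In NSC, whose TLX list has 7458 peaks, 90.51% of summits were in an H3K27ac region (89.82 to 91.16%), 80.47% of those in the central 50% (79.51 to 81.41%), and the median width ratio was 1.814. With the NSC list limited to its 1436 peaks of highest q, these were 84.61% (82.64 to 86.44%, against 91.07 to 93.85% in BTSC), 82.14% and 2.014. This cut keeps NSC peaks of high q only, while the BTSC list keeps peaks of every q. Within BTSC the share inside was 88.3% in the highest of 4 classes of TLX q and 96.94% in the lowest. The 84.61% is therefore not a like comparison with BTSC. Gene position differed with the length of the NSC list. The share over starts with minus without TLX was 4.248 points in BTSC, 16.81 in NSC and −4.93 in NSC with 1436 peaks, and between genes it was 7.0, −3.17 and 9.95. No difference between the cultures was tested.

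Most BTSC regions with TLX were also acetylated in NSC, while the share bound by TLX there turned on the length of the NSC list. Of 1271, 1182 overlapped an NSC H3K27ac region (93.0%, 91.45 to 94.34%) and 1068 held a summit of the full NSC TLX list of 7458 peaks (84.03%, 81.9 to 86.0%). With the 1436 NSC peaks of highest q this was 574 (45.16%, 42.4 to 47.95%). Of regions without TLX, 76.13% overlapped NSC H3K27ac, 16.07% held a summit of the full NSC list and 1.926% one of the 1436. Within width classes the full list gave the same order, with 87.43 against 30.69% in the widest of 4 classes and 77.27 against 4.315% in the narrowest. For H3K27ac the overlaps were 98.82 against 93.34% in the widest class and 52.27 against 51.21% in the narrowest.

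Chromosomes did not contribute evenly. Chromosome 1 had 297 of the TLX peaks, and 261 of its 2662 acetylated regions held TLX (9.805%, 8.701 to 11%), whereas autosomes 2 to 19 ranged from 2.96 to 4.373%. In NSC the share on chromosome 1 was 20.15%, against 19.91% over all NSC regions. Chromosome 6 stood out in NSC, with 623 of 1997 regions (31.2%, 29.17 to 33.28%), and not in BTSC, with 66 of 1609 (4.102%, 3.186 to 5.189%). On the X chromosome 3 of 791 BTSC regions held TLX (0.379%, 0.0783 to 1.104%), and in NSC 27 of 776 did (3.479%, 2.305 to 5.022%). Whether copy number differed between chromosomes was not tested. Without chromosomes 1 and 6, left out because each stood apart in a culture, 3.455% of regions held TLX.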

How the data were processed

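Chromatin immunoprecipitation with sequencing was done in 5 samples of 1 library each, of which 4 peak lists were used. The submitters' processing notes name bcl2fastq (2.17.1.14), Bowtie, ChIPseeker and build mm10. The peak caller is not given in the sources used here, nor are its settings. The authors called narrow TLX peaks and broad H3K27ac regions on single libraries. Each deposited entry has a fold (a linear ratio over background), a −log10 p-value and −log10 q-value, and a score; all are the authors' values, used within 1 list. No source used here gives read numbers, and depth is unknown.

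A TLX summit is the peak start plus its offset, and positions are printed counted from 1. Genes were those that RefSeq places on GRCm38.p6 (mm10). Starts were taken by strand for 17492 of 21900 protein-coding genes and at either end for the other 4408. Calculations used Python 3.11.15, pandas 2.3.3, numpy 2.4.6, scipy 1.17.1 and matplotlib 3.10.9, and were tested on simulated intervals with known answers. Motifs were searched on both strands of promoter windows, counting overlapping windows once.

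Members, the 15 gene lists (224 genes, all found) and 7 motifs were chosen with earlier results of these data known. Genes named are those of the 10 TLX peaks of highest q inside and outside H3K27ac, the 10 regions with most summits, the 10 widest without TLX, the 10 promoters with the summit of highest q, and list genes with TLX in the start region; of these promoters 5 are shown. Genes of the 10 widest regions, acetylated list genes without TLX and Mir3081 were named in addition, after their values were seen. A few genes falling under this rule are not reported here, although every list count includes them. Alternatives were a stricter q for either list, joined regions, overlap in place of summits, leaving out TLX peaks of fold under 2 or chromosomes 1 and 6, a gene start window of 1 kb, and 4 width classes. Joining within 5 kb, strand-known starts alone, leaving out the narrowest of 4 classes of regions, the list settings applied to added results, gene position within classes of fold, and NSC at equal peak number were chosen after seeing the data.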

Additional observations from a re-analysis of the deposited data

Results flagged for a closer look

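The share of H3K27ac regions that lie between genes differed in sign between the cultures. In BTSC it was 7.0 percentage points higher in regions with TLX (32.1%) than in those without (25.1%), and in NSC it was −3.17 points (25.91 against 29.08%). With the NSC list limited to its 1436 TLX peaks of highest q, the NSC value was 9.95 points (38.02 against 28.07%), of the same sign as in BTSC. With 1 library per culture the difference was not tested.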

How the results depend on the processing

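No paired analysis was possible because each group has 1 library. A value counted as moved when a share left its own 95% interval, the start difference changed by over 2.662 points, the width ratio by over 10% or a count by over 1.5 times, so the narrow intervals of large classes make small shifts count. Of the values for comparisons, 52 did not move, 26 moved and 2 reversed; for list counts 38 did not move and 7 did. With TLX peaks of −log10 q of at least 5, 3.219% of regions held TLX, 31.96% of those with TLX lay over a start, and the start difference was 0.894 points. With H3K27ac regions of −log10 q of at least 5, 85.86% of summits were inside, 5.799% of regions held TLX, the width ratio was 1.794, regions without TLX were 45.97% over a start and 21.58% between genes, and the start difference reversed to −8.272 points. Without chromosomes 1 and 6 the share of regions with TLX was 3.455%, that of regions without TLX over a start 32.02% and the difference 1.139 points. A start within 1 kb of the region gave 33.14% over a start without TLX. With 4 width classes the widest held TLX in 9.672%, by the construction of a broader class. Joining within 1 kb could change nothing, as the smallest gap was 1665 bp, and its 9 values are not counted above. Joining within 5 kb gave 68.1% in the central 50%, 4.669% of regions with TLX, a width ratio of 2.586 and start shares of 39.49% with and 35.16% without TLX. Starts of known strand alone gave 28.95% and 25.81% over a start, and 26.01% between genes without TLX, as fewer starts were counted. Without the narrowest of 4 classes of regions, 89.48% of summits were inside, 5.178% of regions held TLX, the width ratio was 1.734, start and between-gene shares without TLX were 37.45% and 22.36%, and the start difference reversed to −1.513 points. The cause of the reversals was not tested. Unknown depth limits each statement on regions without TLX.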
